A study of Mus musculus with 21 samples.

Results

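The genes described here encode transcription factors that oocytes use while primordial follicles form: Figla, Sohlh1, Sohlh2, Nobox, Lhx8 and Taf4b. They were taken by gene symbol from a list of 6 known regulators. The array carried probes for 5 of the 6, among 15548 symbols in all; Taf4b was not analysed here. Those 5 genes had 6 probes, since Sohlh1 had 2, and all 5 passed the detection filter that left 10067 genes for testing. The samples came from female CD1 mice, with 3 arrays for each of 7 stages and 21 arrays in all. PMD3 and PMD4 were whole ovaries of postnatal days 3 and 4, which hold mostly primordial follicles along with every other cell of the ovary. The remaining stages were isolated follicles, which hold an oocyte and the somatic cells around it. PRIMARY follicles of day 10 measured 70 to 90 µm. Two-layer secondary follicles (TLS) of day 12 measured 100 to 130 µm, and multilayer secondary follicles (MLS) of day 16 measured 150 to 180 µm. PREANTRAL follicles of day 18 measured 200 to 300 µm. ANTRAL follicles of day 20 measured 400 to 600 µm and were taken after pregnant mare serum gonadotropin, which stimulates follicle growth. No other group is labelled as treated.

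Figla, Sohlh1 and Sohlh2 encode basic helix-loop-helix proteins, which bind DNA as dimers at a short motif called the E-box. Figla pairs with the widely expressed E proteins and is known in mice for switching on the genes of the egg coat; without it, mouse ovaries form no primordial follicles. Sohlh1 and Sohlh2 are germ cell proteins whose loss in mice lowers Figla, Nobox and Lhx8 and blocks the step to growing follicles. Nobox and Lhx8 are homeodomain proteins, the second with LIM domains that bind the cofactor Ldb1, and oocytes of mice without either one are lost soon after birth. Taf4b is a gonad-enriched subunit of TFIID, the complex that places RNA polymerase II at promoters.

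Per the labels, 3 samples were taken from the pooled material of each stage, and nothing says that they came from separate animals. The p-values therefore rest on the spread among 3 samples that may be technical replicates. An array detected 12363 to 13953 probes (48.1% to 54.3%), and its median signal lay between 91.5 and 143. Some labels disagree with the sample titles used for grouping. PREANTRAL repeat 2 carries the day and diameter of an antral sample, but its correlation was 0.989 with the other PREANTRAL arrays against 0.961 with ANTRAL. PRIMARY repeat 3 carries the stage tag PMD3, but its correlation was 0.991 with the other PRIMARY arrays. Its nearest other stage was TLS, at 0.979. PMD3 repeat 2 and TLS repeat 2 had the lowest correlations of the 21 arrays to the other arrays of their stage, 0.980 and 0.977. TLS repeats 1 and 3 were close to these, at 0.980 and 0.981. They correlated more with another stage, at 0.984 with MLS and 0.987 with PRIMARY. PMD3 repeats 1 and 3 also did so, each at 0.990 with PMD4 against 0.986 with their own stage. Each array was left out in turn. Another 2 ANTRAL arrays share 1 column name and are called repeats a and b.

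Sohlh1 lies on chr2:25842995-25847248, Figla on chr6:86016494-86020996 and Lhx8 on chr3:154306288-154330560 of GRCm38.p6. Nobox lies on chr6:43303674-43310072 and Sohlh2 on chr3:55182044-55209957. The 250 bases before the RefSeq start are printed here for Sohlh1 and Figla, the factors with the most similar course, for Lhx8, whose course differed from theirs, and for Zp3, an egg coat gene bound by Figla. They are given 5′ to 3′ on the gene's own strand, with every E-box (CANNTG, which reads the same on both strands) in capitals. The windows are chr2:25847249-25847498 (minus strand), chr6:86016941-86017190 (plus), chr3:154330561-154330810 (minus) and chr5:135979855-135980104 (plus). The starts are those of the RefSeq promoter table; for Figla and Nobox that start lies inside the gene span given above, so the window does not precede the whole span.
Sohlh1: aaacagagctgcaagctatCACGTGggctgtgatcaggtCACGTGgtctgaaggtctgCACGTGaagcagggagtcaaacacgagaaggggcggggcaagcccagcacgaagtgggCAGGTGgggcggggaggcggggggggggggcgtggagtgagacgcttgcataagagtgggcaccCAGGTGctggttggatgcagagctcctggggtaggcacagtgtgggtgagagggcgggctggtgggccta
Figla: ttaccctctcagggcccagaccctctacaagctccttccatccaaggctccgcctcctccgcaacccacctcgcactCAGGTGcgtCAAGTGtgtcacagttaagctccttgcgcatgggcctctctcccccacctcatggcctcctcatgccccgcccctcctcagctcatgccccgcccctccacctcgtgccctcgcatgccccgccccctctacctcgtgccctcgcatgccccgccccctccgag
Lhx8: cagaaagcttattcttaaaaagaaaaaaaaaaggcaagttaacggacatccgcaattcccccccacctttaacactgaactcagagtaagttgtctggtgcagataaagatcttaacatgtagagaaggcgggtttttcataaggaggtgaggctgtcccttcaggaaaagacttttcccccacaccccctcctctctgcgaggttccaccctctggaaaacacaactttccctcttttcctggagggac
Zp3: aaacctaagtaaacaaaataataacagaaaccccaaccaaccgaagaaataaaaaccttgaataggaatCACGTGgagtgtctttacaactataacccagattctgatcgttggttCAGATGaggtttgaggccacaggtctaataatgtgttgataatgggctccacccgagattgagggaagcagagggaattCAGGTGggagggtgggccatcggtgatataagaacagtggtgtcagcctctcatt

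The Sohlh1 window held 5 E-boxes, 3 of them with the letters CACGTG, whose first bases lie 231, 211 and 192 bases before the start. Of 32841 mouse promoter windows of the same length, 66.2% held at least 1 E-box and 12.2% held 3 or more. CACGTG was rarer, with 6.02% of windows holding it and 0.0609% holding 3 or more. The Figla window held 2 E-boxes, at 173 and 164 bases before the start, and neither was CACGTG. In the Lhx8 window no E-box was found. The Zp3 window held 3, including a CACGTG at 181 bases before the start. Nobox, not printed, had 2 E-boxes and Sohlh2 had 1. The NOBOX element was searched as TAATTG and TAATTA and the LHX8 element as TGATTG, on both strands. None of these 3 motifs was found in any of the windows of the 5 regulators or of Zp3, while 7.17%, 4.84% and 12.7% of all windows held them. A match is only a description of the letters.

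Levels are normalised signals on the log2 scale, so that 1 unit is a doubling. Where the arrays of stages are said to overlap or not, this only describes the arrays of the regulators. The share of all genes without overlap was not computed. All 5 regulators differed over the 7 stages in limma's moderated F test, as did 66.9% of all genes tested. Over the whole course, the mean in ANTRAL minus that in PMD3 was -6.90 for Sohlh1 and -5.63 for Figla. It was -4.17 for Lhx8, -1.56 for Nobox and -0.51 for Sohlh2. These differences understate the true fall where a probe reached the background, which on these arrays lies at about the levels at which detection fails. In bulk RNA, fewer oocytes per sample and less of a transcript per oocyte cannot be told apart.

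**Figure D1:**
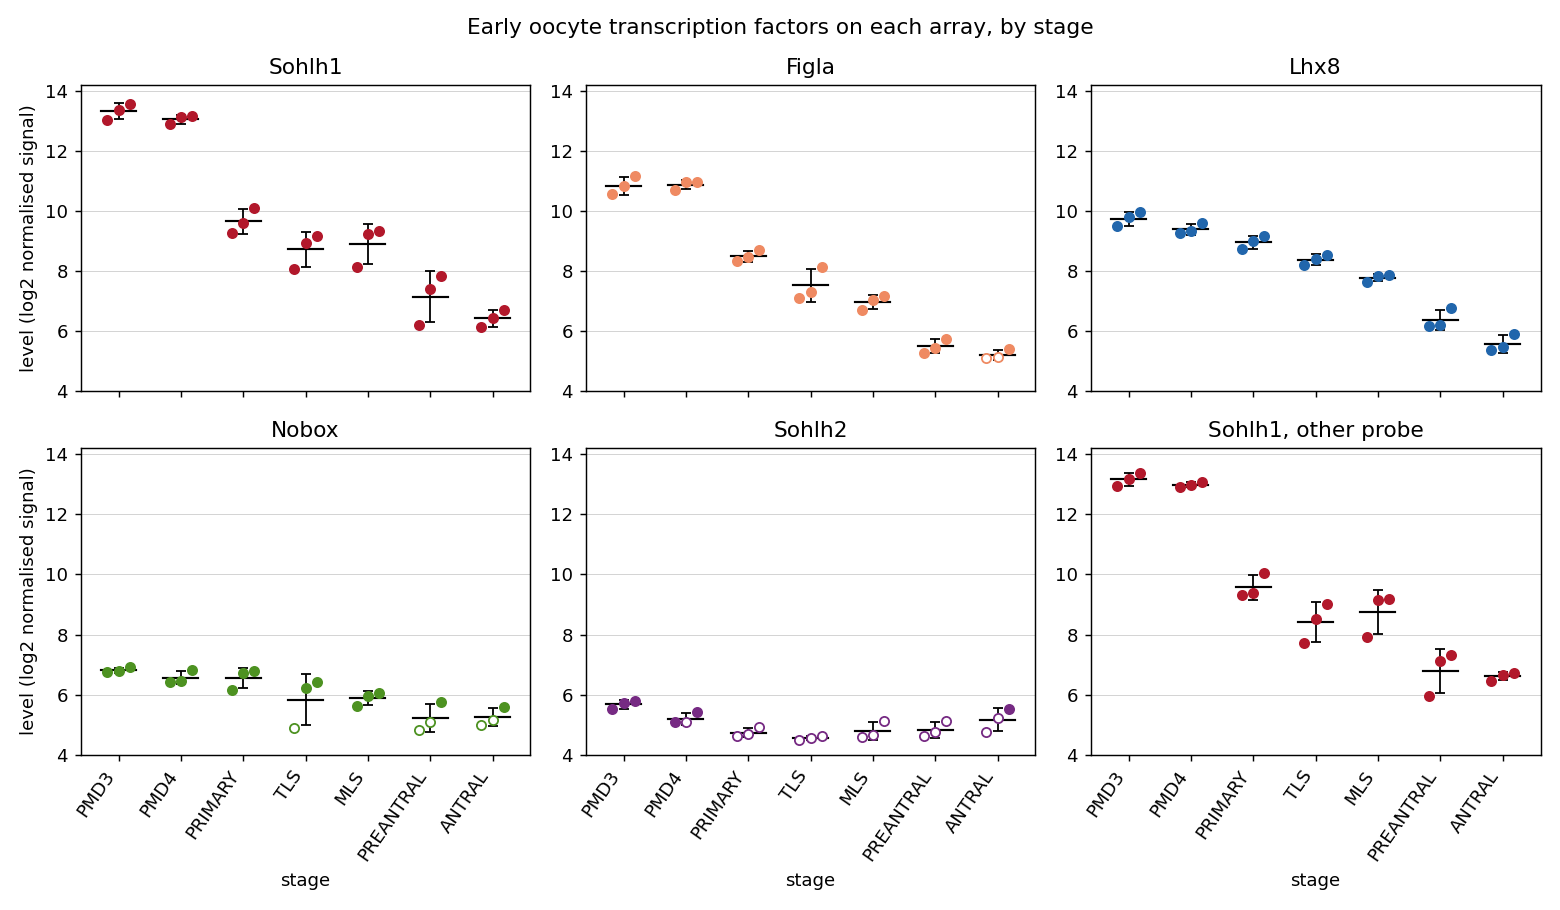
Level of each probe on each array (log2 normalised signal) over the 7 stages; points are arrays, open where the probe was not detected (detection p of 0.05 or more), bars the mean and SD of 3 arrays. Sohlh1 and Figla stood at 13.06 and 10.87 in PMD4 and at 9.67 and 8.49 in PRIMARY, Lhx8 declined over the later stages, and the Sohlh2 probe was detected on no array of PRIMARY to PREANTRAL.

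Sohlh1 was the factor with the widest range. In PMD3 its level was 13.38, 13.03 and 13.56, and in PMD4 it was 12.89, 13.12 and 13.16. PRIMARY follicles had 9.29, 10.11 and 9.60. TLS follicles had 9.16, 8.08 and 8.93, and MLS follicles had 9.24, 8.12 and 9.34. Both whole-ovary stages overlapped each other and lay far above every isolated follicle, while PRIMARY, MLS and TLS formed a middle tier in which neighbours in the order of means overlapped. PREANTRAL follicles had 7.41, 7.84 and 6.19, and ANTRAL follicles had 6.45, 6.70 and 6.12. The last 2 stages overlapped, and PREANTRAL repeat 3 lay within the antral range. Repeat 2 was the lowest array in TLS and in MLS. The other Sohlh1 probe gave the same course, with a correlation of 0.997 over the 21 arrays and stage means that differed from the first by at most 0.36 units.

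Figla followed a similar course. Its level was 10.83, 10.56 and 11.15 in PMD3 and 10.96, 10.96 and 10.70 in PMD4. In PRIMARY it was 8.33, 8.69 and 8.47, and in TLS it was 7.11, 7.31 and 8.15. MLS follicles had 7.04, 6.70 and 7.16, PREANTRAL follicles 5.76, 5.46 and 5.29, and ANTRAL follicles 5.15, 5.41 and 5.09. Ordered by mean, PMD4 and PMD3 overlapped, as did TLS and MLS, and PREANTRAL and ANTRAL, and the steps between these tiers did not overlap. TLS repeat 3 was close to PRIMARY, and the correlation of the whole array was 0.987 with PRIMARY and 0.981 with TLS. The probe was detected on 1 of 3 antral arrays and on every array of the earlier stages.

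Lhx8 declined more evenly. The levels were 9.79, 9.96 and 9.49 in PMD3, 9.61, 9.33 and 9.27 in PMD4, and 9.16, 9.0 and 8.74 in PRIMARY. TLS follicles had 8.20, 8.55 and 8.41, and MLS follicles 7.65, 7.87 and 7.82. PREANTRAL follicles had 6.76, 6.16 and 6.21, and ANTRAL follicles had 5.91, 5.46 and 5.37. Only PMD3 and PMD4 overlapped; every later stage lay wholly below the one before it, and the probe was detected on all 21 arrays.

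Nobox gave a weak signal throughout. It stood at 6.91, 6.78 and 6.76 in PMD3, at 6.46, 6.44 and 6.81 in PMD4, and at 6.16, 6.71 and 6.78 in PRIMARY. TLS follicles had 4.88, 6.42 and 6.21, where repeat 1 was not above background, and MLS follicles had 5.62, 5.94 and 6.07. The first 3 stages overlapped one another. PREANTRAL follicles had 5.75, 4.83 and 5.09, and ANTRAL follicles had 5.17, 5.0 and 5.59, with detection on 1 of 3 arrays in each. Ordered by mean, only PRIMARY and the next stage, MLS, did not overlap.

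Sohlh2 was close to background. It was detected on all arrays of PMD3, at 5.51, 5.71 and 5.80, and on 2 of 3 of PMD4, at 5.09, 5.09 and 5.43. From PRIMARY to PREANTRAL it was detected on no array. ANTRAL follicles had 5.51, 4.76 and 5.22, with detection on 1 of 3 arrays. PMD3 lay wholly above PMD4, while all other neighbours in the order of means overlapped. The probe thus carries a level for the whole ovaries and only a bound for the isolated follicles before ANTRAL.

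PMD4 was compared with PMD3 to ask whether the factors move between whole ovaries 1 day apart. None of the 5 rose or fell in the limma test, against 0.467% of all genes that fell. Sohlh1 averaged 13.06 ± 0.15 in PMD4 and 13.33 ± 0.27 in PMD3 (SD, n = 3 each), a log2 difference of -0.27 with a 95% interval of -1.04 to 0.49. For Figla the difference was 0.03, with an interval of -0.45 to 0.50. Sohlh2 alone had an unadjusted limma p under 0.05, with a difference of -0.47 (adjusted p = 0.297).

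PRIMARY follicles of day 10 differed sharply from PMD4 ovaries in 2 of the factors. Sohlh1 fell 10.5-fold, to 9.67 ± 0.42 in PRIMARY against 13.06 ± 0.15 in PMD4 (log2 difference -3.39, SE 0.37, adjusted p = 3.09e-07). Figla fell 5.21-fold, to 8.49 ± 0.18 in PRIMARY against 10.87 ± 0.15 in PMD4 (-2.38, SE 0.23, adjusted p = 5.14e-08). This single step held 49.1% of the log2 difference between ANTRAL and PMD3 for Sohlh1 and 42.3% for Figla. Figla was detected on 1 of 3 ANTRAL arrays, so its whole difference may be understated and its share too high. All PRIMARY arrays lay below all PMD4 arrays for both genes, and without PRIMARY repeat 3 the differences were -3.36 and -2.36. Of all genes tested, 15.9% fell and 15.6% rose in this comparison.

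The homeobox factors took little or no part in that step. Lhx8 averaged 8.97 ± 0.21 in PRIMARY and 9.40 ± 0.18 in PMD4, a difference of -0.43 (interval -0.84 to -0.03, adjusted p = 0.0974), or 10.4% of its whole course. Its PRIMARY arrays all lay below its PMD4 arrays, and with the variance taken from these 2 stages alone, with the authors' values or without background correction the adjusted p was under the threshold. Nobox averaged 6.55 ± 0.34 in PRIMARY and 6.57 ± 0.21 in PMD4, a difference of -0.02 with an interval of -0.65 to 0.62. Sohlh2 was at 4.74 ± 0.15 in PRIMARY, below detection, and at 5.20 ± 0.20 in PMD4 (adjusted p = 0.0789), which sets a bound of at least 1.04-fold lower; it passed with the variance of the 2 stages alone.

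**Figure D2:**
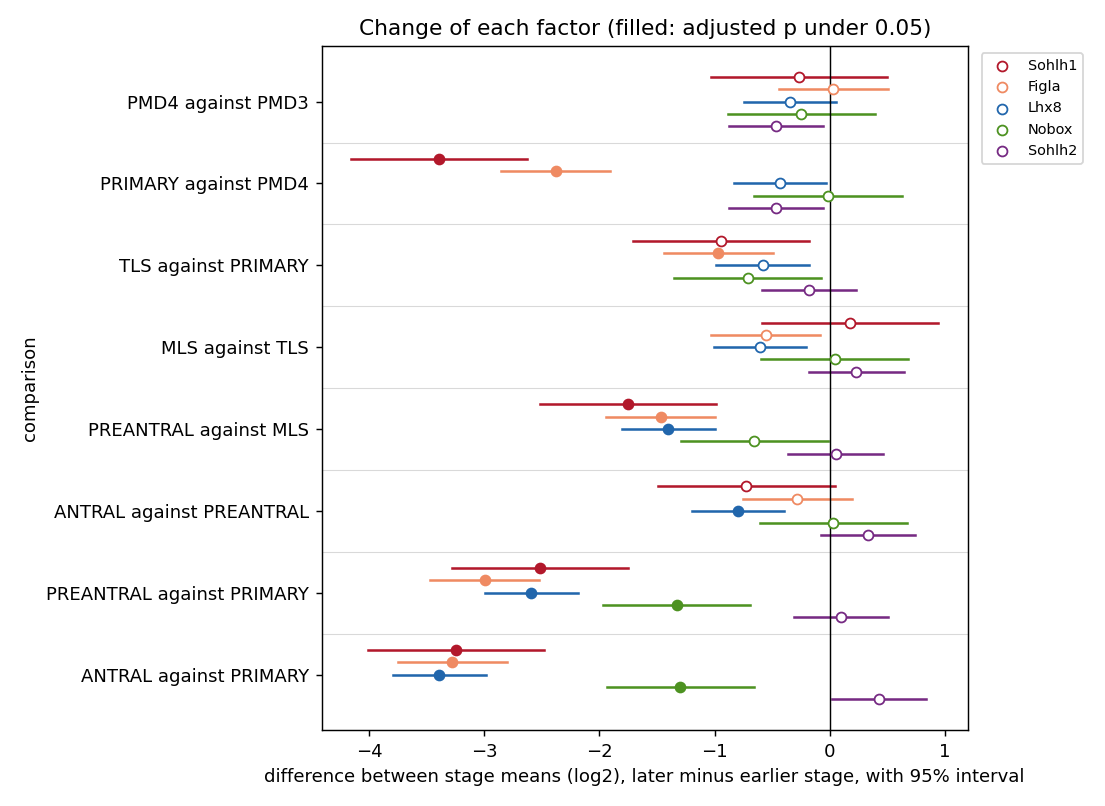
Difference between stage means (log2, later minus earlier stage) with its 95% interval for each factor and comparison; filled points passed an adjusted p of 0.05. The differences of Sohlh1 (-3.39) and Figla (-2.38) in PRIMARY against PMD4 lie apart from those of Lhx8 (-0.43) and Nobox (-0.02), whereas in ANTRAL against PRIMARY Sohlh1, Figla and Lhx8 all lie between -3.39 and -3.24. Figla was detected on 1 of 3 ANTRAL arrays, so its fall there may be understated. With the authors' values the falls of Sohlh1, Figla and Lhx8 were -1.76, -1.18 and -1.42.

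That comparison also sets isolated follicles against whole ovaries, and stage and preparation cannot be told apart. Most markers of cells outside the follicle moved with it. In PRIMARY against PMD4 the 7 endothelial genes tested all fell, as did 5 of 5 surface epithelium genes and 2 of 2 leukocyte genes. Of 12 stroma and theca genes 8 fell and 1, Cyp17a1, rose by 2.71. The summed level of the endothelial list lay between 8.84 and 9.43 in PRIMARY and between 11.53 and 11.63 in PMD4, and Cdh5 and Tie1 were not detected in PRIMARY. For surface epithelium it lay between 8.61 and 8.76 in PRIMARY and between 11.43 and 11.56 in PMD4, with Krt19 and Upk1b undetected in PRIMARY. Stroma and theca summed to 12.79 to 13.40 in PRIMARY and 14.68 to 14.85 in PMD4, and leukocytes to 7.07 to 7.36 in PRIMARY and 10.53 to 10.56 in PMD4. Granulosa cell genes went the other way, with 9 of 16 rising, and summed to 15.90 to 16.05 in PRIMARY and 15.14 to 15.21 in PMD4. The part of these shifts in the fall of Sohlh1 and Figla was not tested.

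Genes of oocyte growth, which are active in the same cell, were set beside the regulators. Of 19 tested genes of oocyte growth, 13 rose and 1 fell in PRIMARY against PMD4, with a median log2 difference of 0.89 and a range of -0.59 to 2.75; the median of all genes tested was 0.02. Bmp15, an oocyte growth factor, rose by 2.75 and Rfpl4, an oocyte RING finger protein, by 2.24. The one that fell was Btg4, a factor in the clearance of maternal mRNA, at -0.59. Sohlh1 and Figla at -3.39 and -2.38 thus lay below the whole range of these genes. Lhx8, Nobox and Sohlh2 lay within it, all below its median. Relative to the mean of the oocyte growth genes on each array, all 5 regulators fell. The differences were -4.43 for Sohlh1, -3.42 for Figla, -1.51 for Sohlh2, -1.48 for Lhx8 and -1.06 for Nobox. On that scale 79.7% of all genes fell, so that the count of 5 says little by itself. The subtracted mean, with each gene centred, itself rose from 0.53 in PMD4 to 1.57 in PRIMARY. Nobox, which differed by -0.02 before the subtraction, thus mainly shows that rise. Sohlh2 was detected on no PRIMARY array, so its relative value is limited by background.

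**Figure D3:**
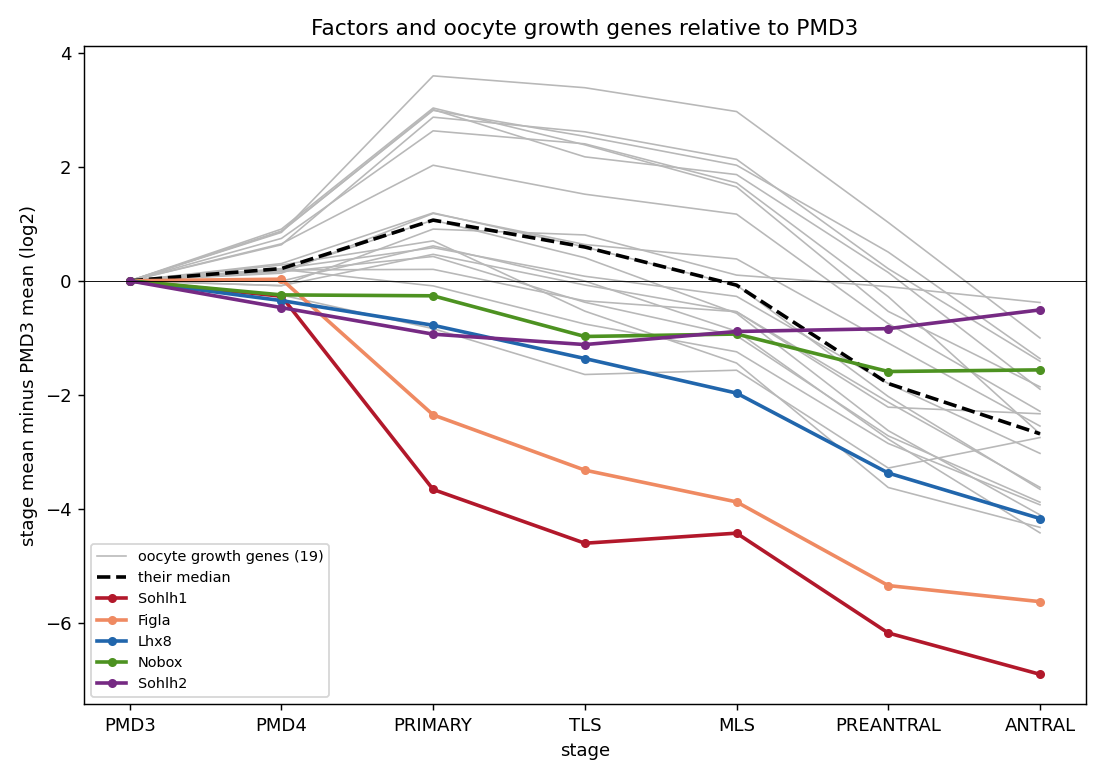
Stage mean minus the PMD3 mean (log2) for the 5 factors in colour, for each of 19 oocyte growth genes in grey and for their median (dashed). The grey genes stand mostly above their PMD3 level in PRIMARY, with a median difference of 0.89 against PMD4, while Sohlh1 and Figla are already at 9.67 and 8.49, far under their PMD3 levels of 13.33 and 10.85.

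In TLS against PRIMARY, Figla fell 1.96-fold, to 7.52 ± 0.55 in TLS against 8.49 ± 0.18 in PRIMARY (-0.97, SE 0.23, adjusted p = 0.0117). It was the only one of the 5 to fall, against 3.35% of all genes. The call was lost without TLS repeat 1 (-0.76, adjusted p = 0.0659), without TLS repeat 2 (-0.86, adjusted p = 0.0567) and without PRIMARY repeat 2 (-0.87, adjusted p = 0.0639), and with the variance of these 2 stages alone; with the authors' values it was -0.50. Sohlh1 differed by -0.94 (adjusted p = 0.132), Lhx8 by -0.58 (adjusted p = 0.0727), Nobox by -0.71 (adjusted p = 0.174), the largest step of its course, and Sohlh2 by -0.18. The TLS arrays of Lhx8 and of Sohlh1 lay below all their PRIMARY arrays. Among the oocyte growth genes 3 of 19 fell in the same comparison, with a median of -0.55.

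In MLS against TLS none of the 5 rose or fell, and 1.51% of all genes fell. Lhx8 (-0.61, adjusted p = 0.0928) and Figla (-0.56, adjusted p = 0.208) had an unadjusted limma p under 0.05. Without background correction Lhx8 passed, at -0.47 (adjusted p = 0.0497). Sohlh1, at 8.90 ± 0.67 in MLS and 8.72 ± 0.57 in TLS, differed by 0.18 with an interval of -0.59 to 0.94.

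PREANTRAL follicles showed the next broad drop. Sohlh1 fell 3.37-fold, to 7.15 ± 0.85 in PREANTRAL against 8.90 ± 0.67 in MLS (-1.75, SE 0.37, adjusted p = 0.00192). Figla fell 2.77-fold, to 5.50 ± 0.24 in PREANTRAL against 6.97 ± 0.24 in MLS (-1.47, SE 0.23, adjusted p = 9.25e-05). Lhx8 fell 2.64-fold, to 6.38 ± 0.33 in PREANTRAL against 7.78 ± 0.12 in MLS (-1.40, SE 0.19, adjusted p = 2.43e-05), its largest step. Of all genes, 9.8% fell. None of the 3 factors overlapped between the stages, but the share of all genes without overlap was not computed. Without PREANTRAL repeat 2, whose labels conflict, the differences were -2.10, -1.45 and -1.30 and all passed. With the authors' values the differences were smaller, -0.93, -0.39 and -0.56, and Figla no longer passed (adjusted p = 0.0563). Nobox differed by -0.66 (adjusted p = 0.169). In the same comparison 18 of 19 oocyte growth genes fell, with a median of -1.76 and a range of -2.18 to -0.20, which takes in the values of the 3 factors.

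In ANTRAL against PREANTRAL only Lhx8 passed, while 14.8% of all genes fell. It stood at 5.58 ± 0.29 in ANTRAL and at 6.38 ± 0.33 in PREANTRAL, a 1.74-fold fall (-0.80, SE 0.19, adjusted p = 0.00354), and at -0.91 without PREANTRAL repeat 2. The call was lost with median scaling (-0.64, adjusted p = 0.0712) and with the authors' values (-0.17). With only the arrays that have a repeat number, which leave 1 ANTRAL array, the Lhx8 difference was -0.47. It was -0.55 when that number was also used as a block. Sohlh1 differed by -0.72 (adjusted p = 0.157), and by -1.20 without PREANTRAL repeat 3 (adjusted p = 0.0150). Figla, with 1 of 3 antral arrays detected, differed by -0.28. The hormone given before ANTRAL collection and the stage cannot be told apart.

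Over the longer span of isolated follicles, which leaves the whole ovaries aside, 4 of the 5 fell in PREANTRAL against PRIMARY and the same 4 fell in ANTRAL against PRIMARY. The shares of all genes that fell were 17.9% and 23.1%. Both comparisons share the PRIMARY arrays. In PREANTRAL against PRIMARY, the differences were -2.99 for Figla, -2.59 for Lhx8, -2.52 for Sohlh1 and -1.33 for Nobox. Without PREANTRAL repeat 2 they were -2.98, -2.49, -2.87 and -1.14, and with the authors' values -1.13, -1.25, -1.49 and -0.30, and all 4 passed in both. In ANTRAL against PRIMARY, Lhx8 fell 10.5-fold (-3.39, SE 0.19, adjusted p = 7.09e-12) and Sohlh1 9.46-fold (-3.24, SE 0.37, adjusted p = 2.58e-07), both with detection on all arrays. Figla (-3.28, SE 0.23, adjusted p = 1.49e-10) and Nobox (-1.30, SE 0.31, adjusted p = 0.00140) fell too, with detection on only 1 of 3 ANTRAL arrays each, so that no fold is given. With the repeat number as a block, which leaves 1 ANTRAL array, Nobox differed by -1.20. With the authors' values the 4 differences were far smaller, -1.42 for Lhx8, -1.76 for Sohlh1, -1.18 for Figla and -0.30 for Nobox, and all passed. Sohlh2 differed by 0.43 (adjusted p = 0.0832), with detection on 1 of 3 ANTRAL and 0 of 3 PRIMARY arrays, and passed without ANTRAL repeat a (0.63, adjusted p = 0.0144).

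All 19 oocyte growth genes fell in PREANTRAL against PRIMARY, with a median of -2.76 and a range of -4.33 to -1.01. Figla, Lhx8, Sohlh1 and Nobox lay inside that range, unlike Figla and Sohlh1 in PRIMARY against PMD4. Khdc3, a protein of the subcortical maternal complex, had a difference of -4.33 and Zp1, an egg coat protein, one of -3.69. Some lists of somatic cell markers moved the other way. Of 16 granulosa genes 9 rose and 2 fell, 7 of 7 endothelial genes rose, and of 12 stroma and theca genes 7 rose and 1 fell. Of 5 surface epithelium genes 2 rose and 1 fell, and neither of the 2 leukocyte genes passed. Inhba, the activin beta-A subunit of granulosa cells, rose by 5.87 and Flt1, a receptor of vascular endothelial growth factor, by 3.33. Relative to the oocyte growth genes, Figla differed by -0.18 (interval -0.67 to 0.31), Lhx8 by 0.22 (-0.28 to 0.72) and Sohlh1 by 0.30 (-0.37 to 0.96), and none of the 3 passed. This depended on the background correction: without it all 3 passed as rises (0.79, 0.78 and 0.64), as they did with the authors' values (1.39, 1.27 and 1.04), and Figla changed sign. On that scale 97.2% of all genes rose. Nobox and Sohlh2 were counted among them. Sohlh2 was detected on no array of either stage, so its value carries no change of its own. Nobox itself differed by -1.33, a smaller fall than the median of the oocyte growth genes. It was detected on 1 of 3 PREANTRAL arrays, so its fall may be understated and its relative rise too large. In ANTRAL against PRIMARY all 5 were called as rising relative to the oocyte growth genes, as were 98.6% of all genes, and nothing is read from the count. There the call of Sohlh1 was lost without PRIMARY repeat 1 (0.70, adjusted p = 0.0626). With the arrays that have a repeat number, which leave 1 ANTRAL array, Sohlh1 differed by 0.84. When that number was also used as a block, Sohlh1 differed by 0.71 and Figla by 0.70.

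**Figure D4:**
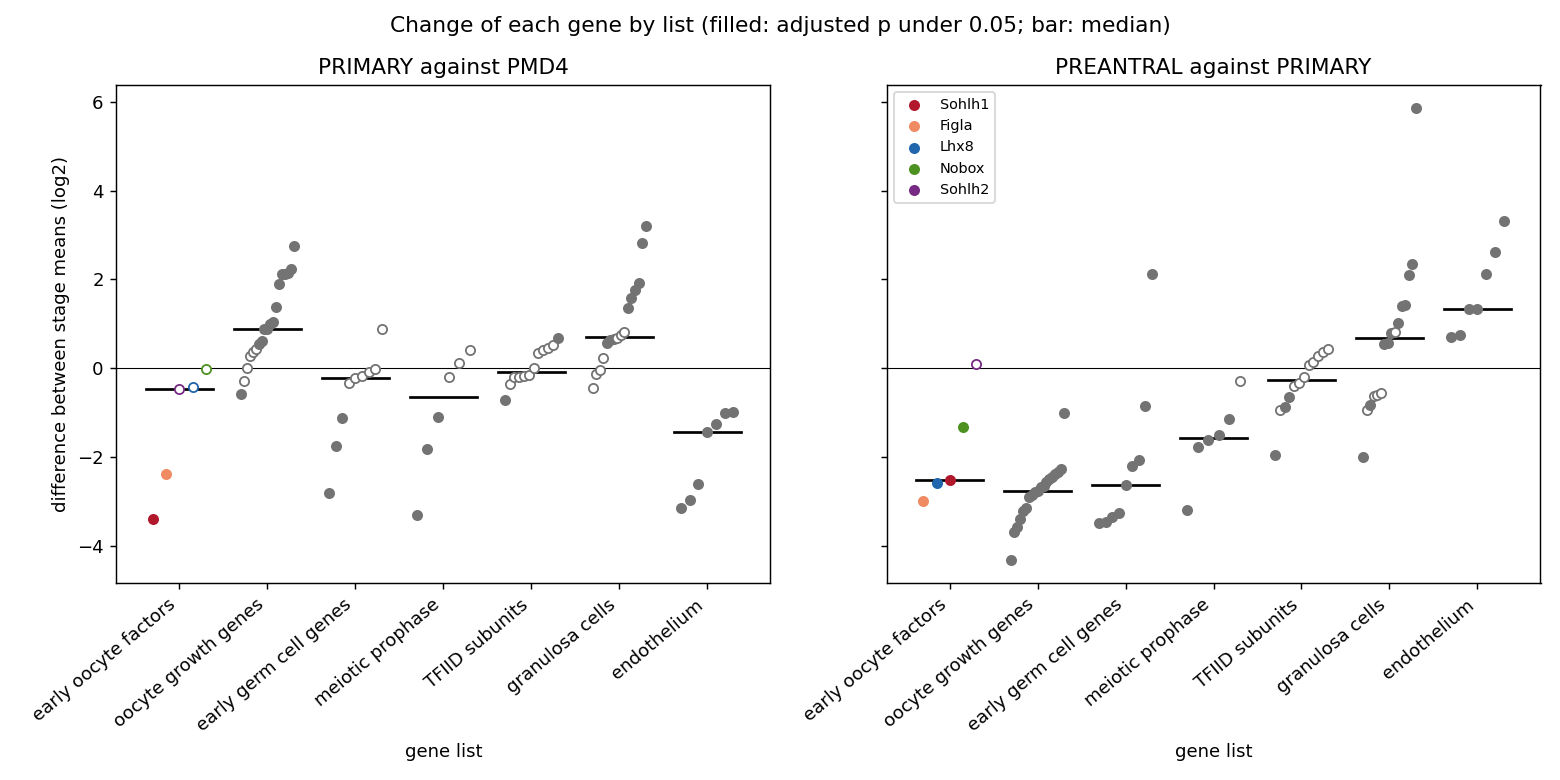
Difference between stage means (log2) of each gene, by list, in PRIMARY against PMD4 (left) and PREANTRAL against PRIMARY (right); filled points passed an adjusted p of 0.05 and bars are list medians. On the left Sohlh1 (-3.39) and Figla (-2.38) lie below all oocyte growth genes (-0.59 to 2.75); on the right the 4 factors that fell lie among them (-4.33 to -1.01), and the endothelial genes lie above 0.

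Target genes of Figla and genes that depend on Nobox in mice were followed next. The egg coat genes Zp1 and Zp3, bound by Figla in mice, rose 1.86-fold and 1.53-fold in PRIMARY against PMD4 (log2 differences 0.89 and 0.62, adjusted p = 0.00374 and 0.0275). Zp1 averaged 12.13 in PRIMARY and 11.24 in PMD4, and Zp3 averaged 13.33 in PRIMARY and 12.71 in PMD4. Of 8 tested oocyte genes that are lower in mice without Nobox, 7 rose and none fell, with a median of 2.01, while Nobox itself differed by -0.02. Zp1, Zp3 and 5 of these 8 genes are also among the 19 oocyte growth genes, so the lists are not separate evidence. Among them Fgf8, an oocyte growth factor, rose 8.75-fold, Bmp15 6.71-fold and Gdf9, its close relative, 2.07-fold. Pou5f1, a factor of germ and stem cells, was the exception at -0.07 (adjusted p = 0.809). In PREANTRAL against MLS all 8 fell, with a median of -1.93, and Zp1 and Zp3 fell as well (-2.06 and -1.89).

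Binding partners of the factors behaved differently from one another. Ldb1, which links LIM homeodomain proteins such as Lhx8 into complexes, lay at 11.90 in PRIMARY and 11.98 in PMD4, and at 12.06 in ANTRAL. It passed in none of the comparisons with PRIMARY given here. Its relative Ldb2 was 14.4-fold lower in PRIMARY than in PMD4 (-3.85, adjusted p = 3.46e-11) and rose by 3.11 in ANTRAL against PRIMARY. Most genes of the endothelial, leukocyte, surface epithelium, and stroma and theca lists moved in the same directions. The part of those cells in the Ldb2 changes was not tested. Of 6 partners tested, 1 rose and 2 fell in PRIMARY against PMD4. The second to fall was Tcf12, an E protein of the kind that pairs with Figla, with -0.62 (adjusted p = 0.00635).

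Taf4b belongs to the general TFIID machinery. Of 12 subunits and related factors tested out of 17 listed, 1 rose and 1 fell in PRIMARY against PMD4, with a median of -0.07. In PREANTRAL against PRIMARY 3 of the 12 fell and none rose, and in ANTRAL against PRIMARY 6 fell and 1 rose. Unless another comparison is named, the values that follow are for PRIMARY against PMD4. Taf5, a scaffold subunit, fell by 0.72 (adjusted p = 0.0104) and Taf13, a histone-fold subunit, rose by 0.69 (adjusted p = 0.0169). Taf12, a partner of Taf4 proteins in the complex, differed by -0.20 (adjusted p = 0.594). Tbp, the TATA-binding subunit, differed by 0.40 (adjusted p = 0.0788). Its oocyte-specific relative Tbpl2 differed by -0.36 (adjusted p = 0.348) and fell by 1.96 in PREANTRAL against PRIMARY (adjusted p = 6.09e-06), where it was not detected in PREANTRAL, so that it was at least 2.23-fold lower.

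Some early germ cell genes fell in PRIMARY along with Sohlh1 and Figla. Of 9 tested out of 14 listed, 3 fell and none rose in PRIMARY against PMD4, where 15.9% of all genes fell. Piwil2, which guards germ cells against transposons, fell 6.97-fold (-2.80, adjusted p = 1.49e-08). Tex14, a protein of germ cell bridges, fell 3.34-fold (-1.74, adjusted p = 7.02e-07), and Dppa3, a maternal factor of the early embryo, fell 2.18-fold (-1.12, adjusted p = 0.00105). The germ cell RNA helicase Ddx4 differed by -0.02 and the RNA-binding protein Dazl by 0.89, and neither passed (adjusted p = 0.956 and 0.0761). In PREANTRAL against PRIMARY 8 of the 9 fell and Tex14 rose by 2.12.

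The likeness of courses was described by Pearson's r over the 21 arrays, which share stages and oocyte content, so that no p is given. Figla and Sohlh1 had an r of 0.978, Figla and Lhx8 0.929, and Lhx8 and Sohlh1 0.886. Nobox had 0.838 with Figla, and Sohlh2 had at most 0.527 with any of the others. Among all genes tested, the 5 most like Figla were Ccdc172 (r = 0.990), Smc1b, a meiotic cohesin subunit (0.987), Sorcs3 (0.986), Gdpd1 (0.982) and Sohlh1. For Sohlh1 they were Mrnip (0.987), Figla, Dnajc5g (0.977), Adcy2 (0.976) and Hexdc (0.971). Lhx8 was most like Lsm14b (0.985), Esyt3 (0.983), Uchl1 (0.980), Dppa3 (0.980) and Slc24a3 (0.979). For Nobox the highest r was 0.930, with Wwc1, followed by Gpr19, Sox15, Necab2 and Arfgef3. For Sohlh2 it was 0.888, with Mep1b, followed by Spg21, Ap2s1, Klk1b8 and Sgms2.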

How the data were processed

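RNA of 21 samples was hybridised to Illumina bead arrays. Per the file headers, the deposited table gives the signal of each probe, an intensity that is not normalised, and a detection p-value against negative controls. A second deposited table holds the authors' log2 values; per the submitters' processing notes limma was used, and its settings are not given in the sources used here. Samples were grouped by title. The detection columns of the 2 ANTRAL arrays with 1 shared name were matched to signals through their order, since p never rises with signal on any of the 21 arrays.

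Background correction and quantile normalisation used the neqc function (offset 16) in limma 3.58.1 and R 4.3.3. Probes with detection p under 0.05 on at least 3 arrays were kept, 15836 of 25697, and the probe with the highest mean stood for its gene. A limma model with stage means gave all comparisons, two-sided, with Benjamini-Hochberg adjustment over 10067 genes and a threshold of 0.05; it was tested on simulated data. A bound uses, for an undetected group, the lowest signal among detected probes. Sequences and positions are RefSeq's for GRCm38.p6, matched for 5 of 5 genes. The members and gene lists were chosen with earlier results of these data known. The text names the regulators, a list of partner and target genes, the 2 genes of a list with the largest change past the threshold, and the 5 genes most like each regulator. Where other genes are named (Btg4, Stag3, Dppa3), their values had been seen. The alternatives changed background correction, scaling, filter, probe, variance, arrays and block. The precision is limited by having 3 arrays per stage.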

Additional observations from a re-analysis of the deposited data

How the results depend on the processing

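The fall of Sohlh1 and Figla in PRIMARY against PMD4 passed under all 30 alternatives, at -3.62 to -3.21 for Sohlh1 and -2.48 to -1.88 for Figla. The falls of Figla, Lhx8 and Sohlh1 in PREANTRAL against PRIMARY and in ANTRAL against PRIMARY also passed under all 30, but their size moved. Figla lay at -3.16 to -1.13 and -3.36 to -1.18 in these 2 comparisons, Lhx8 at -2.90 to -1.25 and -3.56 to -1.42, and Sohlh1 at -2.87 to -1.49 and -3.43 to -1.76, with the smallest sizes from the authors' values. The number of regulators called was 4 in PRIMARY against PMD4 with the variance from the 2 stages alone. In TLS against PRIMARY it was 2 with the authors' values and without background correction, 3 with median scaling and 0 with the variance from the 2 stages alone. It was 1 in MLS against TLS without background correction, and 0 in ANTRAL against PREANTRAL with the authors' values and with median scaling. The setting with the 19 arrays that carry a repeat number was chosen after seeing the data. That setting and the block by repeat number are among the 30 and leave 1 ANTRAL array. Relative to the oocyte growth genes, PREANTRAL against PRIMARY gave 5 with the authors' values and without background correction, where Figla changed sign to 1.39 and 0.79. Leaving out each array in turn gave 0 to 1 in TLS against PRIMARY, 1 to 2 in ANTRAL against PREANTRAL and 4 to 5 in ANTRAL against PRIMARY, there also relative to the oocyte growth genes; the other counts did not move. With median scaling, the median of all genes was -0.16 in TLS against PRIMARY, and the share of calls that were falls to 73.8%, against 45.7% with quantile scaling; the shares in PREANTRAL against PRIMARY were 69.1% and 49.7%. The cause of these differences was not tested. Folds at the lower end are limited by signal over background.

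The labels do not say that repeat numbers pair the arrays. Correlations were therefore taken on each gene's deviation from its stage mean, with ANTRAL left out. On these deviations, same-numbered arrays of different stages correlated at -0.19 to 0.72 (median 0.04), over 0.1 in 12 of 45 pairs. Arrays with other numbers correlated at -0.55 to 0.39, over 0.1 in 13 of 90. Of 18 arrays, 10 correlated best with their own number. Same-numbered pairs were thus over 0.1 more often than others, and pairing was not excluded. As no label pairs them, the arrays were not treated as paired in the main fit. With the repeat number as a block, Sohlh2 passed in PRIMARY against PMD4 (-0.47). Only 1 ANTRAL array carries a repeat number, so for ANTRAL only the differences with the block are given. In ANTRAL against PRIMARY they were -1.20 for Nobox and 0.91 for Sohlh2. In ANTRAL against PREANTRAL they were -0.55 for Lhx8 and 0.82 for Sohlh2. That array is the only ANTRAL array on which Sohlh2 was detected.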

Other observations

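A set of 8 factors known to turn mouse stem cells into oocyte-like cells contains 4 of the regulators (Figla, Nobox, Sohlh1 and Lhx8) beside Tbpl2, Stat3, Sub1 and Dynll1; 7 of the 8 were tested. While 15.9% of all genes tested fell in PRIMARY against PMD4, 4 of the 7 factors fell and none rose. Beyond Sohlh1 and Figla these were Stat3, a transcription factor of cytokine signalling, which fell 2.57-fold, to 9.76 in PRIMARY against 11.12 in PMD4 (limma, adjusted p = 1.23e-06), and Sub1, a transcriptional coactivator, which fell 2.09-fold, to 8.76 in PRIMARY against 9.82 in PMD4 (adjusted p = 0.00386). Neither is specific to oocytes. Most markers of cells outside the follicle fell in the same comparison, and the part of those cells in these falls was not tested. In PREANTRAL against PRIMARY, where 17.9% of all genes fell, 6 of the 7 fell. Among these were the 4 regulators, whose falls are given above. Stat3 also fell, by 0.45 (limma, adjusted p = 0.0351), while Sub1 differed by 0.07 (adjusted p = 0.879).

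Of 16 listed genes of meiotic prophase, through which oocytes pass before and around birth, 6 were tested. In PRIMARY against PMD4, where 15.9% of all genes fell, 3 of the 6 fell and none rose. Tex11, a protein of meiotic crossovers, was not detected in PRIMARY and was at least 8.04-fold lower there than in PMD4 (log2 difference -3.30, adjusted p = 8.54e-12). Smc1b fell 3.51-fold and Stag3, another cohesin subunit, 2.15-fold. In PREANTRAL against PRIMARY, where 17.9% of all genes fell, 5 of the 6 fell. Smc1b and Stag3 were undetected in PREANTRAL, at least 7.11-fold and 2.65-fold lower than in PRIMARY.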
